A study of Mus musculus with 34 samples.

Results

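Smooth muscle cells shorten by sliding actin filaments along myosin filaments, and the genes that build this machinery are used to tell contractile cells from the other cells of a vessel wall. The 10 genes described here are *Acta2*, *Myh11*, *Tagln*, *Cnn1*, *Myl9*, *Tpm1*, *Tpm2*, *Des*, *Lmod1* and *Smtn*, chosen by name among 25853 genes as the contractile set, and all 10 had a row in the tables. They are the smooth muscle actin (*Acta2*), the smooth muscle myosin heavy chain (*Myh11*) and the regulatory light chain (*Myl9*), the tropomyosins that lie along the actin filament (*Tpm1*, *Tpm2*), the actin-binding proteins transgelin, calponin and smoothelin (*Tagln*, *Cnn1*, *Smtn*), the actin filament nucleator leiomodin (*Lmod1*) and the intermediate filament protein desmin (*Des*). In muscle, many genes of this kind are switched on by serum response factor, which binds the CArG box in DNA, together with its partner myocardin. Vascular smooth muscle cells carry the whole set, while pericytes, the contractile cells of capillaries, carry parts of it.

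Single cells were taken from mouse ear skin and measured by mCEL-Seq2, which counts 1 tag at the 3′ end of each captured mRNA molecule, so that levels of different genes need no correction for gene length. CD45- GFP+ cells came from Myh11GFP/+ mice on the C57BL/6J background, in which *Myh11* regulatory sequence drives GFP, and filled 4 libraries numbered 13 to 16. Since the number of mice behind them is not given, they count as 1 sample and no test was made among them, and because the reporter follows *Myh11*, the presence of *Myh11* itself was set by the sort. The study's methods give an age of 7 to 12 weeks for all genotypes, and no narrower age for these mice. None of the mice of the series was treated. The comparison cells were YFP+ mast cells in 30 libraries from male mice of 7 weeks, all with Mcpt5-Cre+/-, which acts in connective tissue-type mast cells, and the R26LSLYFP reporter. Their labels give C57BL/6J, and the study's methods give its albino form, homozygous for the Tyr c-2J allele, so the mast cell mice and the Myh11GFP/+ mice also differ at *Tyr*. They were 3 WT littermates with intact *Tln1* and 3 mice with Tln1fl/fl (KO). Barcodes with over 1000 transcripts and at most 2% *Kcnq1ot1* were kept as cells, which gave 330 Myh11-GFP cells with a median of 4593 transcripts and 2477 mast cells with a median of 5441. Levels are transcripts per 10000 transcripts outside genes named Gm plus a digit, which took 12% to 25.6% of the transcripts of the Myh11-GFP libraries and 14.2% to 58% of those of the mice. The lowest of these was KO mouse 3, and the other mice had 36.7% to 58%. KO mouse 3 had 10 libraries and a median of 4776 transcripts outside Gm genes per cell. The other mice had 4 libraries each and medians of 1889 to 3002.

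The labels were checked against markers before the results. All 15 VSMC markers that had a row (VSMC, vascular smooth muscle cell) were found in the Myh11-GFP cells. They summed to 42.2 to 49.2 over the 4 libraries, and 12 pericyte markers reached 140.2 to 148.5, led by *Rgs5*. Fibroblast markers summed to 151.2 to 353 and keratinocyte markers to 0.226 to 14.1 in the same libraries. Mast cell markers summed to 0.0551 to 0.265 there, against 633 to 866 in the mice. *Tln1* was measured at 5.57, 4.33 and 3.63 in KO mice 1, 2 and 3, against 4.51, 5.92 and 6.71 in the WT mice, ranges that overlap (log2 fold change -0.34, SE 0.23, adjusted p 0.878 by limma), and since a tag at the 3′ end does not show which exons are missing, this level checks no label. Each Myh11-GFP library used 1 of 2 sets of 96 barcodes, and 2 cells in each library, 8 in all, carried barcodes of the set not in use. These 8 cells had a median striated muscle marker level of 278 and 39 transcripts of the contractile set in all, of which 26 were *Tpm1*. Without them the summed level of the set was 119.9 and the mean correlation between members 0.344. Of all pairs of cells from different libraries, 0.388% shared a barcode number, and the median correlation of their profiles was 0.318, against 0.315 for the 40563 pairs with different barcodes.

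The upstream sequence is shown because the members were correlated from cell to cell, as described below. RefSeq upstream sequences (GRCm38.p6, 250 bases before the start) were on hand for 8 of the 10 genes, all but *Myh11* and *Tagln*. CArG boxes were searched as CC, then 6 bases that are A or T, then GG, which reads the same on both strands by its rule. At least 1 such box stood in 1.47% of 32851 promoters and, among the members, in *Myl9* alone. With 1 G or C allowed in the core, the share was 8.59% of promoters, and *Acta2* and *Myl9* each had 2 boxes, while *Cnn1*, *Tpm1*, *Tpm2*, *Des*, *Lmod1*, *Smtn* and *Kitl* had none in this window. Capitals mark the boxes, which begin 84 and 34 bases before the RefSeq start of *Acta2* on the minus strand. Both lie within the outer bounds of the gene in GENCODE M21, whose exons were not looked up. The windows of 30 bases around them are chr19:34255438-34255467 and chr19:34255388-34255417. The *Myl9* sequence, upstream of the gene on the plus strand, is chr2:156775214-156775419, with boxes at chr2:156775303-156775312 and chr2:156775365-156775374.
Acta2, distal box: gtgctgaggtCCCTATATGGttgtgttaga
Acta2, proximal box: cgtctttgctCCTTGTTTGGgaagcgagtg
Myl9: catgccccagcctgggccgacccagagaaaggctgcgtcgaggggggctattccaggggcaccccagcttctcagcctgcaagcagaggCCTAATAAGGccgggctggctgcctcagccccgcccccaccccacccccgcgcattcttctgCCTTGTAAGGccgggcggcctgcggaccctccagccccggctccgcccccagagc
These are matches of letters, and binding was not measured.

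The contractile set made up 1.19% of all transcripts outside Gm genes in the Myh11-GFP cells. Its summed level was 111.8, 123.6, 133.9 and 101.5 in libraries 13, 14, 15 and 16 with an SD of 14.1 between libraries. *Acta2* alone held 33.7% of the set's transcripts, and the 5 most abundant members, *Acta2*, *Tagln*, *Myh11*, *Myl9* and *Tpm1*, formed a group well above the other 5.

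Of the myosin genes, *Myh11* (chr16:14194535-14291372, GRCm38 as for all positions), the motor chain of smooth muscle, had 17.9, 19.5, 18.2 and 14.6 transcripts per 10000 in libraries 13 to 16. *Myl9* (chr2:156775420-156781658), whose phosphorylation switches the motor on, had 16.9, 18.04, 19.8 and 15.5. The libraries of these 2 genes overlapped throughout, with the lowest value of each in library 16. Of the actin filament genes, *Acta2* (chr19:34241090-34255590), the actin itself, had 37.4, 39.4, 46.4 and 36.2, so that its lowest library lay above the highest library of every other member. *Tagln* (chr9:45929619-45936058), which binds and bundles actin, had 15.9, 19.4, 22.2 and 12.6. *Tpm1* (chr9:67022590-67049406) had 13.7, 16.2, 15.9 and 11.9. In the order of pooled levels, *Tagln* (17.9), *Myh11* (17.9) and *Myl9* (17.7) did not differ beyond the spread between libraries. *Tpm1* (14.6) was lower than each of them in every library, although its range over libraries overlapped theirs.

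The second tropomyosin gene, *Tpm2* (chr4:43514711-43523765), had 3.20, 4.77, 5.47 and 4.16, lowest in library 13. *Des* (chr1:75360329-75368579), which ties the contractile filaments to each other and to the cell surface, was the steadiest, with 3.22, 3.002, 3.11 and 3.43. *Lmod1* (chr1:135324807-135368065), which starts new actin filaments, had 2.91, 2.59, 2.02 and 2.48, all below the lowest *Des* library. *Smtn* (chr11:3517523-3540612), a marker of fully contractile cells, had 0.397, 0.275, 0.531 and 0.451. *Cnn1* (chr9:22099216-22109630), which restrains the myosin motor, had 0.313, 0.386, 0.372 and 0.361, within the range of *Smtn*. *Cnn1* was thus the scarcest member by pooled level (0.354 against 0.410 for *Smtn*), a difference smaller than the spread between libraries. A gene outside the set was measured beside it: *Kitl* (chr10:100015630-100100416), the ligand of the Kit receptor on which mast cells depend, had 2.99, 2.07, 2.87 and 1.76, at the level of *Lmod1*.

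**Figure D1:**
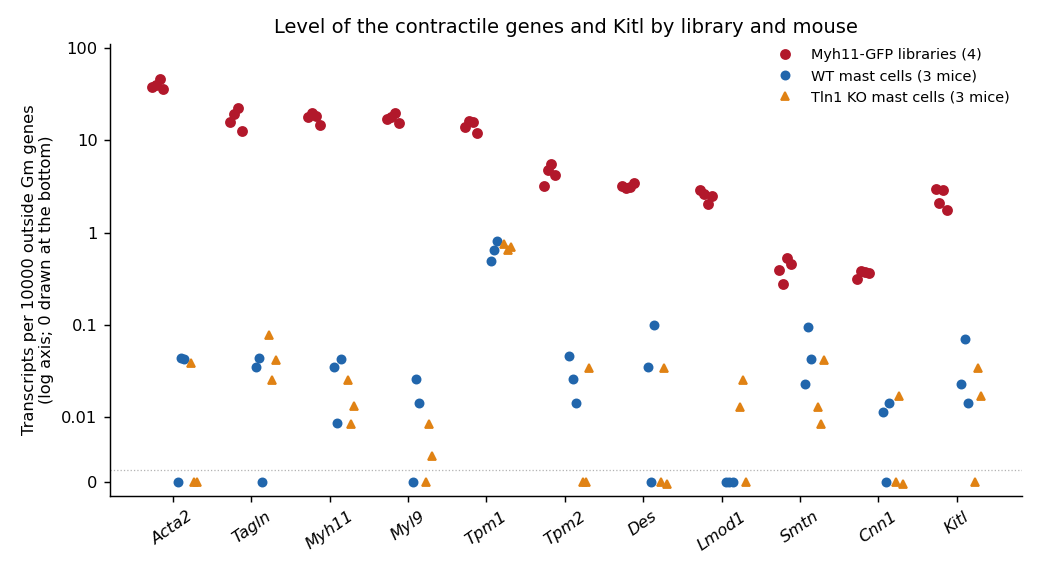
Level of each contractile gene and of *Kitl*, in transcripts per 10000 outside Gm genes on a log axis, with values of 0 drawn at the bottom; red points are the 4 Myh11-GFP libraries, blue points the 3 WT mice and orange triangles the 3 Tln1 KO mice. Every red point of a gene lies above every mast cell point of that gene, and in the mast cells *Tpm1*, at 0.497 to 0.816, stands above all other genes.

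*Acta2* had at least 1 UMI (unique molecular identifier, 1 counted molecule) in 92.1% of the 330 cells, *Tpm1* in 85.5%, *Myl9* in 83%, *Myh11* in 82.4%, *Tagln* in 76.7%, *Des* in 58.5%, *Tpm2* in 57.6%, *Lmod1* in 44.8%, *Smtn* in 13.3% and *Cnn1* in 5.15%. Since depth sets such shares, each cell was also thinned to 1000 UMIs, which left out 1 shallower Myh11-GFP cell and 2 mast cells. *Acta2* was then found in 75.1% of 329 cells (exact binomial 95% interval 70.04% to 79.7%), *Tpm1* in 63.2%, *Myl9* in 61.1%, *Myh11* and *Tagln* each in 57.1%, *Tpm2* in 26.1%, *Des* in 23.4%, *Lmod1* in 20.7%, *Smtn* in 3.34% and *Cnn1* in 2.13%. Thus 7 members were found in over 50% of cells at full depth, and *Tpm2* and *Des* were not among them after thinning. Mast cells, which should lack the set, gave 4.404% for *Tpm1* and at most 0.283% for each other member after the same thinning of 2475 cells. These shares come from other libraries. Within the Myh11-GFP libraries, 376 barcodes of the set not in use that held no cell, far shallower than the cells, had a UMI of *Acta2* in 28.7%, of *Myh11* in 10.1% and of any member in 44.4%, so the background there was higher than mast cells show. A Myh11-GFP cell had UMIs of a median of 6 members, 248 of the 330 cells (75.2%) had 5 or more, 5 cells had all 10 and 4 cells had none.

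Cells of the same sort differed widely in how much of the set they carried. The summed level of a cell was 89.8 at the median, 12.4 at the 5th and 342 at the 95th percentile, and 519 in the highest cell. Its coefficient of variation was 0.862, against 0.195 that counting of molecules alone would give at these depths. The 33 cells with the most transcripts of the set, a number not corrected for depth, held 37.4% of all its transcripts. *Acta2* (0.336 from counting, 1.03 measured), *Myh11* (0.492 and 1.14), *Tagln* (0.496 and 1.20), *Myl9* (0.520 and 0.994) and *Tpm1* (0.559 and 0.869) all varied beyond counting error. *Des* (1.19 and 1.26) and *Smtn* (3.27 and 3.19) varied about as much as counting alone gives, so that at this depth no further spread between cells was detectable for them. The sum of a cell had a correlation of -0.07 with the log2 of its transcripts. By library, the median sum was 89.5, 98.3, 106.5 and 69.9, the lowest again in library 16, whose cells had a median of 2168 transcripts outside Gm genes against 3995 to 4565 in the others.

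The members varied together. Pearson's r of log2(level + 1) was taken across the cells of each library, 73 to 93 cells, and averaged over the 4 libraries, whose cells share a sort and whose members share each cell's depth, so these values are descriptions. Over the 45 pairs the mean r was 0.345, with 0.350, 0.364, 0.315 and 0.350 in libraries 13 to 16. In all, 20 pairs exceeded 0.4 and 3 lay under 0.1. The core was *Acta2* with *Tagln* (0.66, 0.55 to 0.78 over libraries), *Myl9* (0.63) and *Myh11* (0.62), and both tropomyosins belonged to it, *Tpm2* most with *Myl9* (0.56) and *Tpm1* most with *Acta2* (0.49). *Lmod1* was closest to *Myh11* (0.49). *Acta2* also had the highest r with the sum of the other 9 members (0.72), followed by *Tagln* (0.69), *Myl9* (0.65) and *Myh11* (0.65).

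*Des* stood apart from this core: its r with the sum of the other 9 was 0.24, its closest partner was *Myl9* (0.34), and its r with *Acta2* was 0.18. *Lmod1*, with fewer transcripts than *Des*, reached 0.52 with the sum of the other 9. The 2 genes also differed in spread between cells. The coefficient of variation was 1.89 for *Lmod1*, against 1.30 from counting, and 1.26 for *Des*, against 1.19. The part of counting error in the low r of *Des* was not tested. The rare members *Cnn1* (0.28, closest to *Tpm2*) and *Smtn* (0.25, closest to *Tagln*) were low too, and these had the fewest UMIs of the set. *Des* and *Smtn* gave the lowest pair (-0.06). Thinning every cell to 1000 UMIs lowered the mean r over pairs to 0.205.

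**Figure D2:**
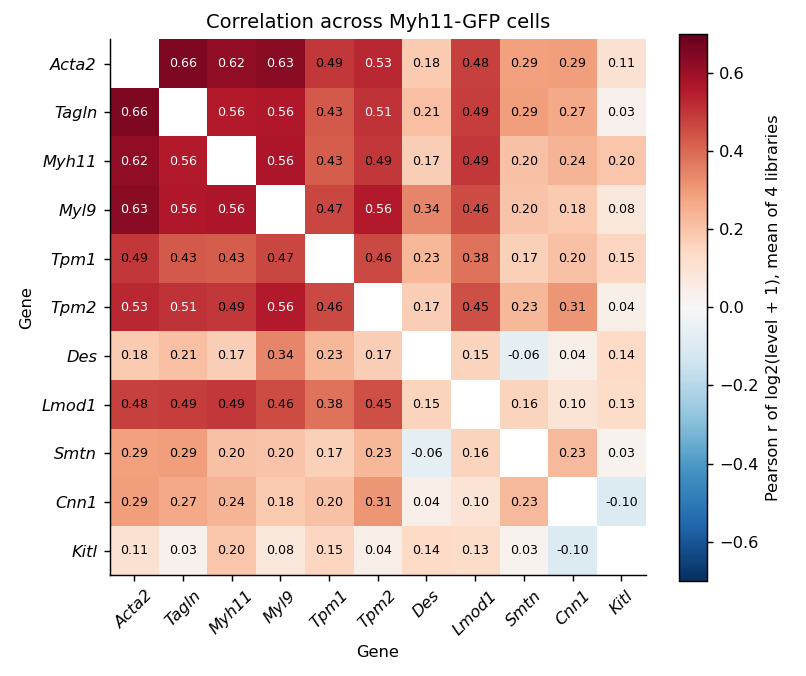
Pearson's r of log2(level + 1) between genes across Myh11-GFP cells, as the mean of the 4 libraries, in colour and digits, with genes on both axes. *Acta2*, *Tagln*, *Myh11*, *Myl9*, *Tpm1*, *Tpm2* and *Lmod1* form the dark block, *Des*, *Smtn* and *Cnn1* are paler, and the *Kitl* row lies between -0.10 and 0.20.

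*Kitl* did not follow the set closely from cell to cell. Its r with the summed level was 0.12, with 0.13, 0.12, 0.08 and 0.17 in libraries 13 to 16, rank 415 of 2595 genes found in at least 20% of cells. *Myh11* was the member nearest to it (0.20, 0.14 to 0.29 over libraries) and *Cnn1* the farthest (-0.10), while *Acta2* gave 0.11 and *Tagln* 0.03. *Kitl* had a UMI in 49.4% of cells, more than *Lmod1*, whose r with the other 9 members was 0.52. The part of counting error in the low r of *Kitl* was not tested.

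Among the same 2595 genes, whose median r with the sum was 0.03, the genes most like the set were *Mustn1* (0.61) and *Mylk* (0.59), the kinase that phosphorylates the myosin light chain. They were followed by *Dstn* (0.58), which severs actin filaments, *Aoc3* (0.56), *Crip1* (0.55), *Flna* (0.54), which crosslinks actin, *Sparcl1* (0.49), *Epas1* (0.47), *Actb* (0.46), *Igfbp7* (0.46), *Csrp1* (0.45) and *Myl6* (0.44), the essential myosin light chain. At the other end were *Emp1* (-0.47), *Apoe* (-0.34), *Mgp* (-0.32), *Ly6a* (-0.32), *Abcc9* (-0.30), *Bicc1* (-0.30), *Marcks* (-0.30) and *Ifitm1* (-0.29). *Abcc9*, part of a potassium channel, is one of the pericyte markers. *Rgs5*, a pericyte and smooth muscle gene with 113.7 transcripts per 10000, had an r of 0.36 with the set.

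The cells were next grouped by genes outside the contractile set and the related lists, so that the members themselves took no part in grouping. Of 9 clusters, 5 could be named from markers. Cluster 1, with 83 cells (25.2%), was VSMC-like (*Mustn1*, *Nrip2*, *Pcp4l1*). The name rests on the smallest number of markers allowed, 3, and 1 of them, *Mustn1*, is a gene of the contractile lists, kept out of the clustering but not out of the naming, and the non-member most correlated with the set. Also, the leading genes of this cluster were others, *Lcmt2*, *Avpr1a*, *Gla* and the early-response genes *Rasd1* and *Nr4a2* among them. Cluster 3, with 59 cells, was pericyte-like (*Kcnj8*, *Abcc9*, *Steap4*, *Vtn*, *Rgs4*) and led by the chemokine genes *Ccl11* and *Ccl2*. Not every listed marker followed these 2 names. The VSMC marker *Synpo2* was lower in cluster 1 than in cluster 3 (1.53 against 4.52), while *Actg2*, *Mylk*, *Pln*, *Kcnmb1*, *Myocd* and *Ldb3* were higher. The pericyte marker *Rgs5* was higher in cluster 1 (131.3 against 117.8), and *Notch3* was nearly equal (10.7 against 10.9). Cluster 8 was fibroblast-like (7 cells), cluster 9 keratinocyte-like (6 cells), and cluster 7 striated muscle-like, with 10 cells of which 8 were the cells of the barcode set not in use. The other 4 clusters stayed unnamed, the largest being cluster 2 (64 cells, led by *Synm*, *Mob2* and *Mme*) and cluster 4 (58 cells, led by *Arntl2* and *Cdk15*). Cluster 2 had the VSMC markers *Mustn1*, *Ldb3* and *Ntrk3*, but the pericyte marker *Cspg4* was among its leading genes, and cluster 4 had the pericyte markers *Kcnj8* and *Abcc9*. The study's methods describe doublet exclusion in the sort for the mast cells, and no doublet caller was run on either kind of cell.

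The summed level of the set was 167.4 in VSMC-like cells, 215 in cluster 2, 94.1 in cluster 4 and 64.5 in pericyte-like cells. Gm genes took 11.2% of the transcripts of the VSMC-like cells, 30.1% in cluster 2, 21.1% in cluster 4 and 14.9% in the pericyte-like cells, and their part in these sums was not tested. Cell by cell, the sum had a median of 157.5 (quartiles 98.3 and 209) in VSMC-like cells, 147.9 (55.2 and 275) in cluster 2 and 48.8 (33.2 and 85.7) in pericyte-like cells. The groups therefore overlapped, with pericyte-like cells up to 329 and VSMC-like cells down to 2.78. Fibroblast-like cells had a sum of 4.47 and keratinocyte-like cells 11.9. In striated muscle-like cells it was 31.96, of which *Tpm1*, which all muscle types use, made up 22.8, while *Myh11* was at 0.

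**Figure D3:**
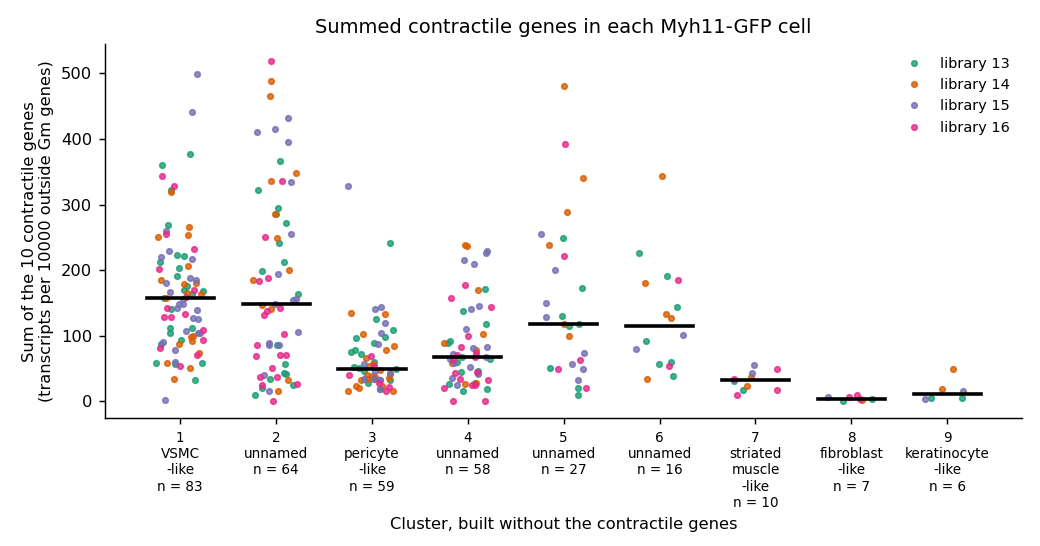
Sum of the 10 contractile genes in each Myh11-GFP cell, in transcripts per 10000 outside Gm genes, by cluster; colours are the 4 libraries and bars the cluster medians. VSMC-like cells and the unnamed cluster 2 reach highest and have medians of 157.5 and 147.9, pericyte-like cells lie mostly under 100 with a median of 48.8, and the 7 fibroblast-like cells stay under 10.

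Between VSMC-like and pericyte-like cells the members kept different ratios. *Acta2* had 57.8 against 19.4, a ratio of 2.97 (95% interval 2.73 to 3.25 from counting, 2.02 to 7.11 over libraries). *Myh11* had 28.8 against 7.41, a ratio of 3.89 (3.39 to 4.48, and 3.42 to 7.26 over libraries). *Lmod1* had 3.59 against 0.743, a ratio of 4.83 (3.15 to 7.71, and 3.78 to 7.63 over libraries). For these 3 genes, as for *Tpm2* (2.87), *Tagln* (2.30), *Myl9* (2.04) and *Tpm1* (1.93), the VSMC-like level was higher in each of the 4 libraries. *Des* was the exception, with 4.03 against 3.33, a ratio of 1.21 whose counting interval (0.946 to 1.55) and library range (0.924 to 1.76) both include 1. *Smtn* had 2.00 transcripts in all pericyte-like cells and a ratio of 10.6 with an interval from 2.66 to 92.2. *Cnn1* had no UMI in them, which allows a level up to 0.110 from counting. Its level in VSMC-like cells was 0.679 (0.451 to 0.981 from counting). That level was 7.62 times the floor of 3 counts over the pericyte-like group. This ratio leaves out the counting error of the VSMC-like level and is no lower limit. Library 16, which gave the highest ratios of *Acta2*, *Myh11* and *Tagln*, had only 6 pericyte-like cells. The unnamed cluster 2, with VSMC markers too, had ratios to the pericyte-like cells of 3.99 (3.65 to 4.38 from counting) for *Acta2*, 4.17 for *Myh11*, 7.04 for *Lmod1* and 3.33 for the sum, and 1.13 (0.836 to 1.51) for *Des*.

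*Kitl*, low in its correlation across all cells, did differ between these groups: its level was 3.73 in the VSMC-like group and 1.22 in the pericyte-like group, a ratio of 3.07 (2.16 to 4.44 from counting) that held between 2.81 and 3.55 in the 4 libraries. Its ratio ranged least between libraries of all genes with a value in each. Yet this range was narrower than the counting interval, and all pericyte-like cells together held only 41 transcripts of *Kitl*. It therefore shows no steadiness beyond counting error. Within the 83 VSMC-like cells alone, the r of *Kitl* with the summed set was -0.14, while the mean r between members was 0.305. In cluster 2, *Kitl* had 3.89 and *Acta2* 77.6, against 3.75 for *Des*. The level of *Des* lay between 3.32 and 4.03 in clusters 1 to 5. It was lower, 1.21 (0.485 to 2.49 from counting), in the 16 cells of the unnamed cluster 6.

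**Figure D4:**
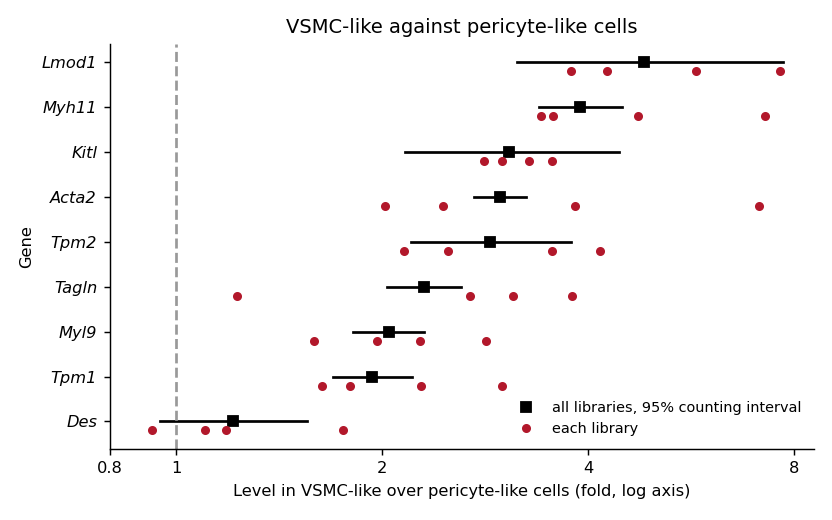
Level in VSMC-like cells over that in pericyte-like cells for 8 members and *Kitl*, as a fold on a log axis; squares with bars are all libraries with the 95% counting interval and red points each library. *Lmod1* (4.83) and *Myh11* (3.89) lie farthest from 1, and *Des* (1.21) is the gene whose interval crosses it; *Smtn* and *Cnn1* had too few transcripts to be drawn.

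*Cnn1* was concentrated in very few cells. It had a UMI in 17 cells, and 5 of these, with levels of 14.8 to 16.7 against 9.93 in the next cell, held 29 of its 51 transcripts (56.9%). These 5 cells, chosen after their values were seen, came from all 4 libraries and from the VSMC-like cluster (2 cells) and unnamed clusters (3 cells). Their summed set was 335 to 489, against a median of 89.1 in the other cells, and *Acta2* reached 182.1 against 38.2. In 4 of the 5 cells *Actg2* was found, the actin gene typical of visceral smooth muscle, with 35 of its 77.1 transcripts in the whole sort. *Rgs5* was low in them, at 14.6 against 114.97 in the others. *Kitl* had 1.00 transcript there, a level of 0.542 (0.0137 to 3.02), against 2.56 in the others. *Des* was found in 2 of the 5 cells.

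The other genes of the apparatus gave the setting. Of 23 further thick and thin filament genes, 22 had all 4 Myh11-GFP libraries above all 6 mast cell mice, as had all 10 members, where 11.2% of 20142 genes did so. *Mylk* (23.5 per 10000) was more abundant than any member but *Acta2*, and its ratio between VSMC-like and pericyte-like cells was 2.17. *Cald1*, the actin-binding caldesmon, had 15.8 against 17.4 in these groups and *Synpo2* 1.53 against 4.52, so that not every filament gene was higher in VSMC-like cells. Of 14 names listed for the serum response factor and Notch control of the set, 12 had a row. The other 2, *Mrtfa* and *Mrtfb*, are newer names of *Mkl1* and *Mkl2*, which are among the 12. Of these 12 genes, 6 had all libraries above all mice. None of the 9 that could be correlated passed an r of 0.3 with the set (median 0.08), against 10 of 16 filament genes (median 0.35). *Srf* itself had 1.05 per 10000 and an r of 0.08, *Notch3* 10.1 and 0.21, and *Myocd*, the gene of myocardin, 0.208, with 0.364 in VSMC-like cells and none found in pericyte-like cells.

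Each smooth muscle gene has a counterpart used by other cells. Of 14 genes listed as such counterparts, 7 had all Myh11-GFP libraries above all mice and 4 had all libraries below, where 12.3% of all genes lay below. Among these 4 was *Lmod3*, a leiomodin of striated muscle and so not a non-muscle gene. It had 0 transcripts in the Myh11-GFP cells and only 17 in all mast cells. *Actb*, the general actin, was above *Acta2* even in the Myh11-GFP cells (53.7 against 40.1), and *Vim* (35.7) was above *Des* (3.17), its muscle counterpart among intermediate filament genes. *Cnn2* (3.24) and *Cnn3* (2.03) likewise exceeded *Cnn1* (0.354). For the motor chain the order was reversed, with *Myh11* 5.75 times *Myh9*, and *Myh9* itself was lower in VSMC-like than in pericyte-like cells (1.55 against 5.83; r with the set -0.13). Of 14 genes of cardiac or skeletal muscle, 12 had a row and 9 of these had all libraries above all mice. Among them *Actc1* reached 124.8 per 10000 in the 10 striated muscle-like cells and 2.26 in VSMC-like cells.

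In mast cells the set was close to absent, with *Tpm1* as the exception. WT mice 1, 2 and 3 had a summed level of 0.682, 0.898 and 1.09, and KO mice 1, 2 and 3 one of 0.910, 0.773 and 0.839. The Myh11-GFP cells were 140.5 times higher (130.98 to 150.6 from counting). With all mice pooled, *Acta2* was 3609 times higher in Myh11-GFP cells (2016 to 7235 from counting), *Myl9* 2508 times, *Myh11* 1041 times, *Lmod1* 626 times (242 to 2310), *Tagln* 455 times, *Des* 209 times and *Tpm2* 165.1 times. *Cnn1* and *Smtn*, low on both sides, were 70.2 and 10.1 times higher. KO mouse 3 gave 52.9% of the mast cell transcripts, and without it the folds were 1701 for *Acta2*, 1655 for *Myl9*, 295 for *Lmod1*, 253 for *Tpm2*, 105.7 for *Des* and 41.4 for *Cnn1*. Without WT mouse 2 those of *Acta2* and *Myl9* were 5851 and 3881, without WT mouse 3 that of *Des* was 365, and without KO mouse 2 that of *Lmod1* was 2207. The order of these genes by fold is therefore not settled, while *Myh11* (834 to 1175 over the 6 mice left out in turn), *Tagln* (423 to 495), *Smtn* (9.17 to 12.4) and *Tpm1* (20.9 to 22.1) moved less. All mast cells together held from 4 transcripts (*Lmod1*) to 40 (*Smtn*) of each of these 9 genes. *Tpm1* was different, with 675 transcripts and a fold of 21.5 (19.7 to 23.5). It had a UMI in 17.6% of mast cells, with 23.6% in KO mouse 3 and 10.9% to 16.3% in the other mice. It was 61.4 times as abundant as *Acta2* in mast cells and 0.366 times as abundant in Myh11-GFP cells, so the 2 genes did not keep 1 ratio in both cell types. In barcodes of the mast cell libraries that held no cell its level was 0.395, with a counting interval (0.204 to 0.690) that includes the 0.682 of cells. Over all mice, the mast cell level of *Tpm1* was 0.645 without the 4 barcodes of over 50000 transcripts and 0.664 without 18 cells in which fibroblast markers passed 1% of transcripts. The tropomyosins *Tpm3* (5.46) and *Tpm4* (2.32) of non-muscle cells were 8.00 and 3.40 times as abundant as *Tpm1* there.

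Loss of *Tln1* was compared over mice, 3 against 3, where the exact 2-sided permutation test over 20 splits cannot go below p = 0.1. *Tpm1* had 0.497, 0.654 and 0.816 in WT and 0.744, 0.645 and 0.699 in KO mice. The groups overlapped, with means of 0.655 ± 0.159 (SD, n = 3) and 0.696 ± 0.0493 (SD, n = 3) and an exact permutation p of 0.8. In 2 of the 7 sets of cells tried, which left out 18 and 4 cells, this overlap was lost. Without the 18 cells with fibroblast markers, WT mice had 0.489, 0.596 and 0.641 and KO mice 0.753, 0.646 and 0.699, and without the 4 barcodes of over 50000 transcripts WT mice had 0.497, 0.604 and 0.636 and KO mice 0.744, 0.645 and 0.666. In both cases the groups no longer overlapped, KO being higher, with an exact permutation p of 0.1, the smallest this design allows. The limit of 50000 transcripts was chosen after the data were seen. In the other sets the groups overlapped. With over 2000 transcripts per cell the means were 0.658 in WT and 0.662 in KO mice. The exact permutation p was 0.8 without cells with keratinocyte markers over 1%, and 0.8 without cells of the barcode set not in use. It was 0.5 without the library of WT mouse 2 with the most macrophage markers. In limma, which tested 8586 genes, *Tpm1* had a log2 fold change of 0.11 with an SE of 0.23 and an adjusted p of 0.962 by limma, and 0 genes of all those tested were called at an adjusted p under 0.05 (0% called, 495 at an unadjusted p under 0.05, and 0 and 527 with voom weights). *Tpm1* was the only member with enough transcripts to enter. Without WT mouse 1 its log2 fold change was -0.07 and limma called 1 gene, and without KO mouse 1 it called 15 genes, none of them a member. With Gm genes in the total, 45 genes were called, again no member.

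In all cells, *Tpm1* did not separate the KO mice from the WT mice, as 11.6% of the 8586 genes tested did. The other 9 members, at 0 to 22 transcripts a mouse, are not among those genes, so this share is no background for them, and they overlapped too. The exact permutation p of the 10 members ran from 0.2 for *Smtn* to 1 for *Cnn1*. *Acta2* was at 0, 0.0436 and 0.0429 in WT and 0.0385, 0 and 0 in KO mice, which is 0 to 5.00 transcripts a mouse, and no difference would be detectable at this depth. Of the further filament genes, 10 were tested and none was called, *Filip1l* (log2 fold change 0.52) and *Cald1* (1.15) being those at an unadjusted p under 0.05 in limma, with adjusted p of 0.857 and 0.859. Of the control genes, 8 were tested and of the non-muscle counterparts 10, and none was called by limma. Fibroblast markers summed to 1.0199 to 83 and keratinocyte markers to 0.103 to 31.6 over the mice, and the unused barcodes of WT mouse 1 and KO mouse 1 resembled each other (r 0.629) more than those of the other 4 mice (0.425 to 0.490). Within WT and KO mouse 1, *Tpm1* was 0.497 against 0.744, and within the other 4 mice 0.654 and 0.816 against 0.645 and 0.699. In the latter set the KO mice were both higher, 0.646 and 0.699 against 0.596 and 0.641, without the cells with fibroblast markers, as they were without the deepest barcodes.

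**Figure D5:**
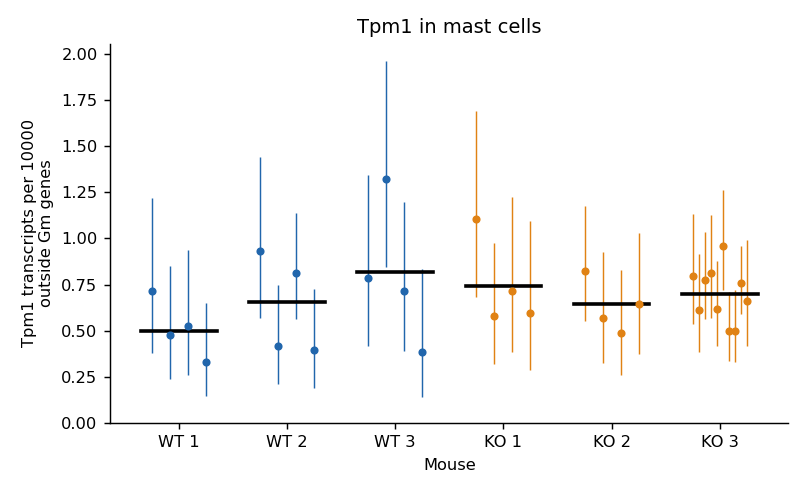
*Tpm1* in mast cells, in transcripts per 10000 outside Gm genes; points are the 30 libraries with 95% counting intervals, blue for WT and orange for KO, and bars are the levels of the 6 mice. Libraries run from 0.330 to 1.32, and the mouse levels of both groups lie in the same range, 0.497 to 0.816 in WT and 0.645 to 0.744 in KO.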

How the data were processed

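Single cells of mouse ear skin were sequenced by mCEL-Seq2, in 30 libraries of mast cells and 4 of Myh11-GFP cells. Base calls were made with bcl2fastq 2.17.1.14, and reads were aligned to mouse gene models (mm10 build) by BWA 0.6.2-r126, as the submitters' processing notes and the study's methods give it; reads mapping to several loci were discarded, and loci overlapping by over 75% were merged. The values are estimated transcript counts, deposited by the authors, made from UMIs corrected for 4096 possible UMIs; every value gave back a whole UMI number within 1e-06. No normalization had been applied to them. No column of another series was present.

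Here, barcodes with over 1000 transcripts and at most 2% *Kcnq1ot1* were taken as cells, which the latter limit did not change for the Myh11-GFP cells. The members and lists were chosen with earlier results of these data known. The genes named by likeness were the 12 highest and 8 lowest in r with the summed set, members, *Kitl* and *Rgs5* aside. Clusters were made with scanpy 1.11.5 and leidenalg 0.10.2 (2000 variable genes without the lists, 30 components, 15 neighbours, resolution 1) and named from at least 3 markers found in 25% of their cells and 2-fold over the other cells. Mast cells were summed per mouse, the mouse being the number after wt or KO in the labels. Genes with at least 10 transcripts in 3 mice were tested with limma 3.58.1 on log2 of transcripts per 1000000 outside Gm genes plus 1, with trend and Benjamini-Hochberg adjustment, and the script was tested on simulated data. Same-numbered WT and KO mice correlated at 0.164, -0.212 and -0.266 in their deviations, so the numbers do not pair mice. Myh11-GFP cells were not tested, and nothing says whether their libraries came from separate mice; p-values in mast cells measure the spread between the mice. Intervals are 95% exact Poisson or binomial and cover counting error only, as does the floor of 3 counts. Median depth was 4593 transcripts in Myh11-GFP cells and 5441 in mast cells. Gene positions are GENCODE M21 (GRCm38).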

Additional observations from a re-analysis of the deposited data

Results flagged for a closer look

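In library 16 the share of Myh11-GFP cells with a UMI of *Acta2* was 80.8%, against 94.6% to 96.2% in the other 3 libraries, and that of *Myh11* was 68.5%, against 84.9% to 87.2%. Both were far from the other libraries by Dixon's criterion (critical value 0.829 for 4 samples), 2 of 26 sets of 4 libraries that were looked at, where chance flags about 1 in 20. Library 16 had a median of 2168 transcripts outside Gm genes per cell against 3995 to 4565, and its levels per 10000 of both genes (36.2 and 14.6) were also the lowest; the part of depth in the shares was not tested.

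The barcodes of the Myh11-GFP libraries that belong to the set not in use and held no cell, 376 in all, were left out of the comparisons. They held the 10 contractile genes at a summed level of 66.98 (59.5 to 75.2 from counting), against 0.758 in the same kind of barcode of the mast cell libraries. *Acta2* had 35.8 there, close to its level in cells, whereas *Myl9* had 3.49 against 17.7 in cells. *Des*, *Cnn1* and *Smtn* had no UMI in them. The source of these transcripts was not tested.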

How the results depend on the processing

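With Gm genes in the total, the summed level in Myh11-GFP cells was 96.8, that in mast cells 0.485, the mean correlation 0.375, and limma called 45 genes between KO and WT, 3 of them higher, with a shift of 0.18 in the median log2 fold change of all genes; no member was among them. The cause of this shift, and of those that follow, was not tested. The mean correlation was 0.372 in cells with over 2000 transcripts, 0.368 by Spearman, 0.315 with a pseudocount of 0.1, 0.205 in thinned cells and 0.305 in VSMC-like cells alone. The correlation of *Kitl* with the set turned to -0.138 in VSMC-like cells alone and otherwise stayed between 0.101 and 0.149. Members per cell were 3.89 in thinned cells and 4.67 where 2 UMIs were asked, in place of 5.99. Thinning or asking for 2 UMIs moved 21 of 22 shares. The ratio of VSMC-like to other cells, 1.68, ran from 1.64 to 2.10 with other clusterings; clustering of thinned cells gave no VSMC-like cluster.

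Leaving out 1 library at a time gave 113.7 to 122.6 for the summed level, 0.338 to 0.354 for the mean correlation, 0.111 to 0.141 for *Kitl* and 1.58 to 1.85 for the ratio of VSMC-like to other cells. It gave 5.86 to 6.32 members per cell. Leaving out 1 mouse gave 0.820 to 0.901 for the mast cell sum, 0 to 15 genes called (15 without KO mouse 1 and 1 without WT mouse 1), none of them a member, and -0.0707 to 0.281 for the log2 fold change of *Tpm1*, reversed without WT mouse 1. Over all 19 alternatives its adjusted p in limma ran from 0.890 to 1.00. Of the 7 sets of mast cells tried, *Tpm1* did not overlap between the groups in 2, as given above. With the mouse number as a replicate block, limma called 0 genes (406 at an unadjusted p under 0.05) and *Tpm1* kept 0.11. The alternatives without cells of other types, other than fibroblasts, without the 8 cells of the unused barcode set, with VSMC-like cells alone, with the mean over cells, with mice left out of the folds over mast cells, and with libraries left out of the clusters and of the members per cell were chosen after seeing the data. Depth limits *Cnn1* and *Smtn* in single cells and 9 of the 10 members in mast cells.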
